A study of Mus musculus with 3 samples.

Results

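The insulin-like growth factor (IGF) system was described in 3 RNA-seq libraries of C2C12 cells, a mouse myoblast line that can be turned towards muscle or bone. The genes were taken by name: the ligands Igf1 and Igf2, the receptors Igf1r and Igf2r, and the binding proteins Igfbp2, Igfbp3, Igfbp4, Igfbp5, Igfbp6 and Igfbp7, which makes 10 of 22706 genes in the deposited files. The library labelled shKSRP was made from cells transfected, per their label, with a hairpin RNA that targets KSRP, an mRNA-binding protein encoded by Khsrp, and kept in growth medium with 20% serum and no BMP2. The BMP2 library was made from mock-transfected cells titled DM + BMP2. For these the protocol describes differentiation medium (2% horse serum) and the bone morphogenetic protein BMP2 at 100 to 300 ng/ml. The library called mock here was made from mock-transfected cells kept in growth medium (20% serum) with no BMP2. The description of the BMP2 library reads mock_1d and names neither medium nor BMP2, while its source label names BMP2 and no medium. The meaning of 1d is not stated, so the time in BMP2 is not settled here. Sources used here do not say whether the shKSRP cells were a clone or a pool. By its title, the BMP2 library differs from mock in medium and BMP2 together. Each group holds 1 library, so no difference has a replicate check and no test was made.

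IGF-I and IGF-II are secreted ligands that act through the IGF-I receptor, a tyrosine kinase that signals through insulin receptor substrates to the PI3K and AKT pathway and to MAP kinases. The IGF-II receptor carries no kinase: it takes IGF-II into the cell for breakdown and also sorts lysosomal enzymes that bear mannose 6-phosphate. The binding proteins hold IGFs outside the cell, shield them from the receptor or bring them to it, and are cut by proteases. IGFBP-7 is a relative that binds IGFs weakly. In cultured myoblasts, IGF-II made by the cells themselves is known to promote differentiation into myotubes, and IGFBP-5 is known as a binding protein of differentiating muscle cells.

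All values are gene FPKM, that is, fragments per kilobase of a transcript, scaled to the mapped fragments of the library. A gene's FPKM is the sum of its RefSeq transcripts and of the transcripts that Cufflinks assembled from each library's own reads at the same Cufflinks locus. The ± is a half-width from the deposited 95% intervals and holds the error of counting and of assigning fragments, nothing else. Ratios were taken as log2 of FPKM + 1, a scale on which changes of weakly expressed genes come out too small. A gene was called higher or lower where this ratio passed 2-fold, a rule of size and no test. Since the assembly differed between libraries, each ratio was also computed in a further pair of ways. By exon overlap, assembled transcripts of other Cufflinks loci with at least 50% of their length in the gene's exons were added. By exon overlap with a fixed length, the fragments of all these transcripts were divided by the length of the longest RefSeq transcript.

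Promoter windows are shown for the 3 genes whose starts or levels the results turn on: Igf2, whose signal stood on 1 start, Igfbp4, whose annotated transcript was listed at 0 in 1 library, and Igfbp2, which varied most. Each window runs from 250 bases before to 50 bases after a RefSeq start on the gene's strand, in GRCm38.p6, and is credited to RefSeq. Capitals mark the GC box GGGCGG and the TATA box TATAAA, searched on both strands and not overlapping here.
Igf2, most downstream of 4 starts, chr7:142657447-142657746, minus strand: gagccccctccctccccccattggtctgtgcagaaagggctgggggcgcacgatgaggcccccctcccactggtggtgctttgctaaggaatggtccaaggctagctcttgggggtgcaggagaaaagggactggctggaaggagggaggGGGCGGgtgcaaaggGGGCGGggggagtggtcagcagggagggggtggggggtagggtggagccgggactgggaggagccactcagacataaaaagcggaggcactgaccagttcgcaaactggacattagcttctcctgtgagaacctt
Igfbp2, first start, chr1:72824230-72824529, plus strand: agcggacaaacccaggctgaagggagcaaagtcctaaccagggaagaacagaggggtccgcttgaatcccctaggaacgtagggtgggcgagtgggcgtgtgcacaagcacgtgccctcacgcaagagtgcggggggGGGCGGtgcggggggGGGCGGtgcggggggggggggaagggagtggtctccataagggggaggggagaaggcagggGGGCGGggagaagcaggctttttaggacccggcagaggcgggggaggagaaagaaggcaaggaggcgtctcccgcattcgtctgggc
Igfbp4, chr11:99040994-99041293, plus strand: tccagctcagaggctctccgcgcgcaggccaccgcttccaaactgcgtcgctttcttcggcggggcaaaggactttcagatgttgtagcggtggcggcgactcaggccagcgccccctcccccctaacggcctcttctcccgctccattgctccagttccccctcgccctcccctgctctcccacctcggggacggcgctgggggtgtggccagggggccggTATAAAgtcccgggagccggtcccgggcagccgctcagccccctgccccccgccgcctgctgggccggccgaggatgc
The Igf2 window held GGGCGG 2 times, the Igfbp2 window 3 times and the Igfbp4 window held TATAAA 1 time. Of 32851 RefSeq promoter windows, 35.7% held GGGCGG and 13.6% held TATAAA. All 10 genes matched a window, 14 windows in all. In these, 5 of the 10 genes held GGGCGG, and TATAAA was found for Igfbp4 and Igfbp6. The E-box CAGCTG, bound by myogenic factors, and GGCGCC, an element bound by SMADs downstream of BMP, were each found for Igf1 alone (16.3% and 11.9% of all windows). GTCTAGAC, a palindrome bound by SMADs, was in none of the 14 windows and in 0.213% of all windows. A match is a description of letters and no evidence of binding.

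Libraries and labels come before the results. Interval widths corresponded to 60.4 M to 68.5 M (mega) fragments per library. Khsrp was at 28.4 ± 0.640 FPKM in the library labelled shKSRP, 27.1 ± 0.666 in the BMP2 library and 31.4 ± 0.852 in mock, so that library held 90.6% of mock and the mock-transfected BMP2 library 86.5%. An assembled transcript held 15.9 FPKM of the mock value. Without it, by RefSeq alone, Khsrp was higher in the library labelled shKSRP than in mock, with a log2 ratio of 0.83. The mRNA thus did not check the label, and every direction below for that library carries this doubt. All 7 myoblast markers examined were measured, with summed levels of 4256, 4081 and 6115 FPKM in the library labelled shKSRP, the BMP2 library and mock, most of it Vim. Of these 7, 2 were called higher and none lower in the library labelled shKSRP than in mock. They were the myogenic factor Myf5, at 48.4 against 7.75 FPKM, and Pax7, at 2.90 against 0.118. The 2 calls made 28.6% of the 7 markers, beside 24.0% of all compared genes. Pax7 had a log2 ratio of -0.16 on RefSeq transcripts alone. Vim, Des and Cdh15 lay below mock there without a call. In the BMP2 library 1 was lower than in mock and none higher, the cadherin gene Cdh15 at 5.02 against 38.3 FPKM. This call made 14.3% of the 7 markers, beside 18.2% of all compared genes. The 6 myotube markers summed to 70.0, 89.1 and 52.9 FPKM in the library labelled shKSRP, the BMP2 library and mock. Of 5 compared, 1 was higher and 2 lower in the library labelled shKSRP than in mock. In the BMP2 library 1 was higher and 1 lower than in mock. These calls made 60% and 40% of the 5, beside 24.0% and 18.2% of all compared genes. Tnnt3 was listed at 0 in both these libraries and at 6.90 FPKM in mock. Of 5 epithelial markers, Krt14 was at 18.4, 264 and 114 FPKM in the library labelled shKSRP, the BMP2 library and mock, and Epcam was at 0 in all 3 libraries, and the 3 endothelial markers summed to at most 0.0680 FPKM. Among 3 chondrocyte markers, Col2a1 was at 0.0556, 68.8 and 6.95 FPKM in the library labelled shKSRP, the BMP2 library and mock, Sox9 was at 6.23, 18.1 and 13.7, and Acan was at or near 0. Their part in the results below was not tested. In such bulk samples fewer cells of a type and less RNA per cell cannot be told apart. Summed FPKM was 533262 in the library labelled shKSRP, 564500 in the BMP2 library and 677872 in mock. Dividing by that sum moved the median log2 ratio of all genes from -0.02 to 0.29 for shKSRP against mock and from 0.03 to 0.28 for BMP2 against mock. The share of calls that were higher moved with it, from 46.0% to 67.9% and from 50.7% to 68.7%.

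Both ligands were at low levels, under 6 FPKM in each library, and Igf1 was the lowest of the 10 genes throughout. Igf1 (chromosome 10, 87321801 to 87399792, plus strand, mm9 build as for all gene coordinates here) was at 0.303 ± 0.0578 FPKM in the library labelled shKSRP, 0.444 ± 0.0755 in the BMP2 library and 0.0685 ± 0.0246 in mock. These values correspond to about 147, 189 and 29.9 fragments, and Igf1 stayed under the 1 FPKM needed to be compared, so it is described and not called. The intervals of the library labelled shKSRP and of the BMP2 library lay above that of mock. Igf2 (chromosome 7, 149836673 to 149846940, minus strand) was at 2.56 ± 0.201 FPKM in the library labelled shKSRP, 5.18 ± 0.303 in the BMP2 library and 2.11 ± 0.191 in mock. The BMP2 library stood highest, at 2.45 times the mock FPKM, and its log2 ratio of 0.99 lay just short of a call. For the library labelled shKSRP the log2 ratio to mock was 0.20, and -0.00 with the trend over transcript length taken out.

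Igf2 has 3 RefSeq transcripts in the files that differ in their start and share their 3′ part. In all 3 libraries the whole value stood on NM_001122737, the transcript with the most downstream start, 3554 nt into the gene, and NM_010514 and NM_001122736 were listed at 0. Its RefSeq start lies in the first window printed above. Genes that bind Igf2 mRNA or lie in imprinted regions, as Igf2 does, made a list of 10, of which 9 matched a symbol and 4 were compared. H19, the neighbour of Igf2, matched no symbol and was not analysed here. Igf2bp2, whose protein binds Igf2 mRNA, was at 9.96, 8.58 and 6.48 FPKM in the library labelled shKSRP, the BMP2 library and mock. Igf2bp1 and Igf2bp3 stayed under 1 FPKM in all 3 libraries. The imprinted gene Mest, named after its values were seen, made the list's only call against mock. It was at 8.03 FPKM in the library labelled shKSRP and listed at 0 in both other libraries, so no fold is given. That call made 25% of the 4 compared, beside 24.0% of all genes. In the BMP2 library none was called against mock, beside 18.2% of all genes. The list's median log2 ratios to mock were 0.46 and 0.55, beside -0.02 and 0.03 for all genes.

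Both receptors were compared, and both depended on how assembled transcripts were counted. Igf1r (chromosome 7, 75097143 to 75378553, plus strand, 21 exons) was at 5.69 ± 0.197 FPKM in the library labelled shKSRP, 5.90 ± 0.236 in the BMP2 library and 1.69 ± 0.107 in mock. By Cufflinks locus the first and second of these thus stood above mock, with log2 ratios of 1.31 and 1.36, and did not differ beyond their intervals from each other. The mock library, however, held a transcript of a single exon of 7849 nt without strand, at 1.56 ± 0.137 FPKM, with 97.4% of its length in exons at the 3′ end of Igf1r. Cufflinks gave it a locus of its own. With it, mock came to 3.25 ± 0.173 FPKM and the log2 ratios became 0.65 for the library labelled shKSRP and 0.70 for the BMP2 library. With a fixed length, the levels were 5.30, 4.92 and 2.72 FPKM in the library labelled shKSRP, the BMP2 library and mock, with log2 ratios to mock of 0.76 and 0.67. Igf1r was therefore above mock in both libraries in all 3 ways, and passed 2-fold in 1 of them.

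Igf2r (chromosome 17, 12875272 to 12962572, minus strand, 48 exons) was at 18.4 ± 0.544 FPKM in the library labelled shKSRP, 7.73 ± 0.235 in the BMP2 library and 6.71 ± 0.216 in mock. The library labelled shKSRP stood apart, with log2 ratios of 1.33 to mock and 1.16 to the BMP2 library. Of its 18.4 FPKM, 5.18 ± 0.206 stood on the RefSeq transcript and 13.3 ± 0.503 on an assembled transcript of 15 exons and 3879 nt, which begins 71644 nt into the gene and runs to its 3′ end. Neither of the other libraries had an assembled Igf2r transcript. On the RefSeq transcript alone the order was turned round, with 5.18 in the library labelled shKSRP, 7.73 in the BMP2 library and 6.71 in mock, and log2 ratios of -0.32 to mock and -0.50 to the BMP2 library. Spread over the fixed length of 8929 nt, Igf2r was at 10.9 ± 0.301 FPKM in the library labelled shKSRP, which is 163% of mock (log2 ratio 0.63) and 142% of the BMP2 library (log2 ratio 0.45). The total was thus higher in the library labelled shKSRP, short of 2-fold, and the assembled model that held the surplus covers its 3′ part. In the BMP2 library Igf2r differed little from mock, with a log2 ratio of 0.18, and of -0.12 with the length trend taken out. Airn, the noncoding RNA that is transcribed against Igf2r and silences its paternal copy, was at 0.305 ± 0.219 FPKM in the library labelled shKSRP, 1.44 ± 0.509 in the BMP2 library and 0.460 ± 0.280 in mock. Of the BMP2 value, 1.07 FPKM stood on 2 assembled transcripts with 35.0% and 62.6% of their length in Airn exons. On RefSeq transcripts alone Airn was at 0.305, 0.369 and 0.460 FPKM in the same order, so the BMP2 library was then not above mock.

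**Figure D1:**
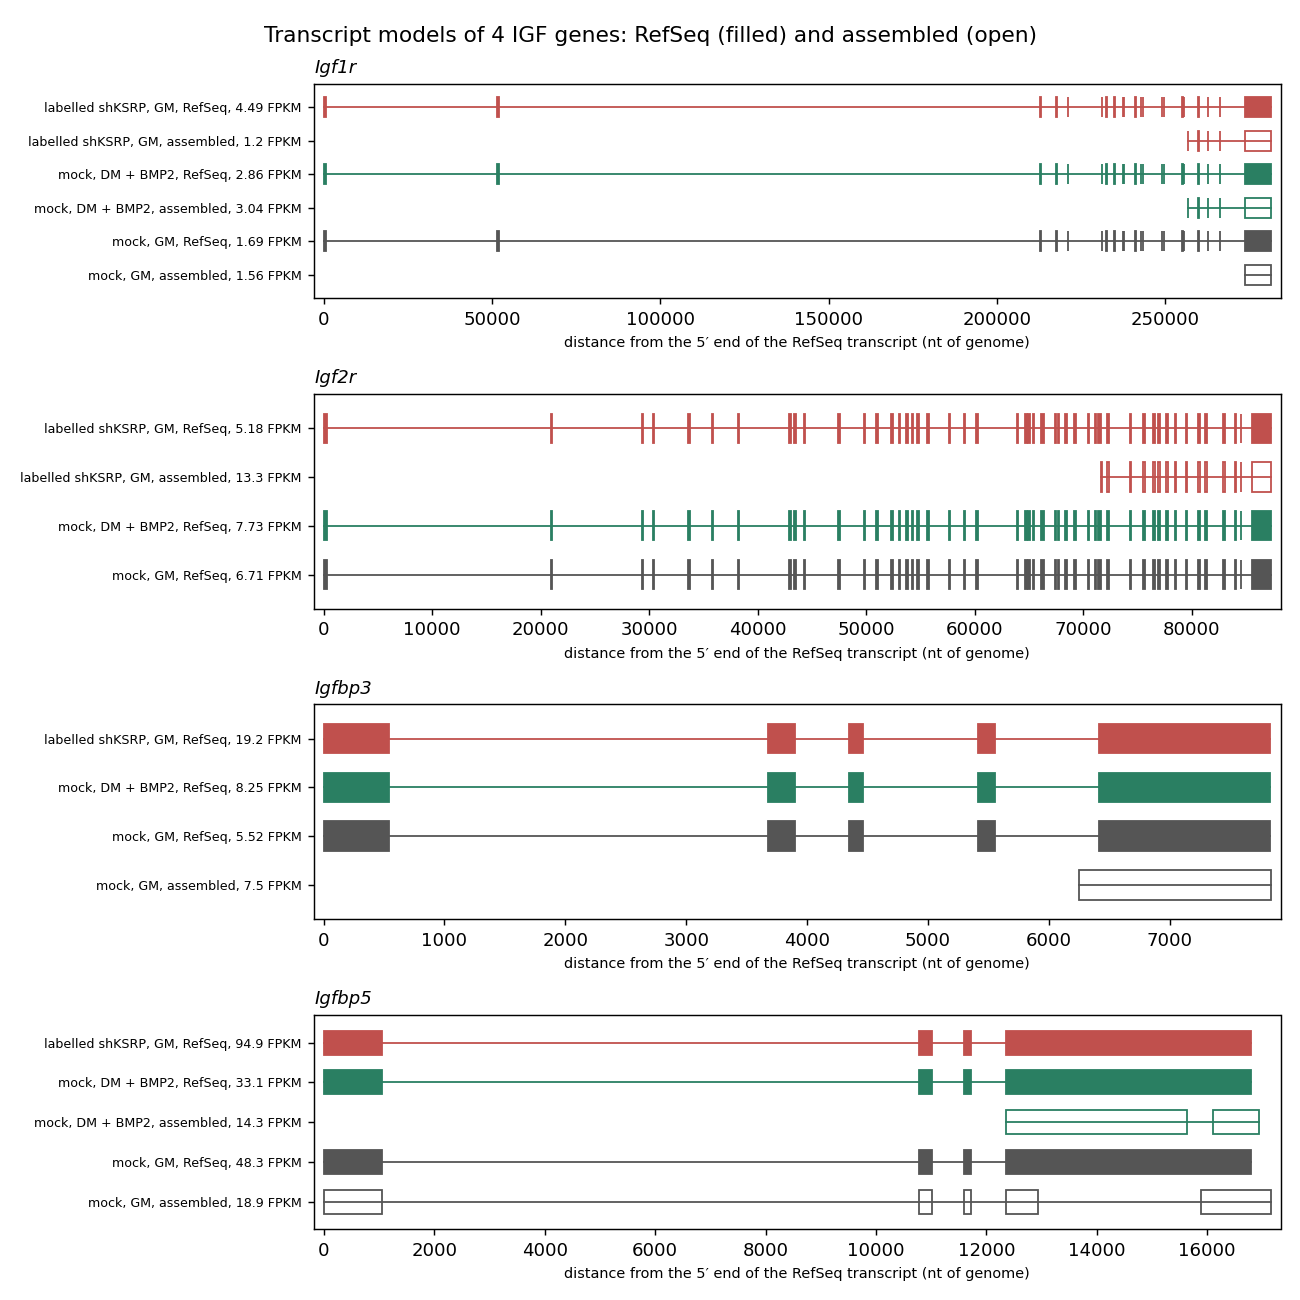
Transcript models of Igf1r, Igf2r, Igfbp3 and Igfbp5 in each library, drawn by distance from the 5′ end of the RefSeq transcript (nt of genome, x axis), with RefSeq transcripts filled, assembled transcripts open and each model's FPKM beside its library. The assembled models lie at the 3′ ends except that of Igfbp5 in mock, and those of Igf1r and Igfbp3 in mock are a single exon.

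The binding proteins carried most of the system's mRNA. Igfbp7 had the highest level in the BMP2 library and the library labelled shKSRP, and Igfbp2 had it in mock. Igfbp2 (chromosome 1, 72871077 to 72899045, plus strand), a carrier that is abundant in the fetus and acts on bone and muscle cells, was at 103 ± 2.24 FPKM in the library labelled shKSRP, 310 ± 6.72 in the BMP2 library and 456 ± 4.94 in mock. Among the compared genes of the system it had the widest range, with the intervals of all 3 libraries apart. The library labelled shKSRP held 22.5% of mock and 33.1% of the BMP2 library, with log2 ratios of -2.14 and -1.58. Of all compared genes, 2.99% had a lower log2 ratio to mock. The call against mock held in all alternatives, between -2.15 and -1.70. In the BMP2 library 95.3 FPKM stood on an assembled transcript of 471 nt. Its log2 ratio to mock was -0.56 by locus, -0.87 with a fixed length and -1.08 on RefSeq transcripts alone. Thus the BMP2 library lay below mock in each, and only the last passed 2-fold.

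Igfbp3 (chromosome 11, 7106096 to 7113926, minus strand), the main carrier of IGFs in blood, was at 19.2 ± 0.684 FPKM in the library labelled shKSRP, 8.25 ± 0.476 in the BMP2 library and 5.52 ± 0.449 in mock. The library labelled shKSRP was highest, and its log2 ratio of 1.13 to the BMP2 library was the same in all 3 ways, as neither library had an assembled Igfbp3 transcript. Mock held a transcript of a single exon of 1589 nt at 7.50 ± 0.677 FPKM, with 89.0% of its length in Igfbp3 exons and a locus of its own. Counting it brought mock to 13.0 ± 0.812 FPKM, or 10.4 ± 0.629 with a fixed length. The log2 ratio to mock then went from 1.63 to 0.53 or 0.83 for the library labelled shKSRP. For the BMP2 library it went from 0.50 to -0.60 or -0.30, so the order of the BMP2 library and mock turned. Igfbp1, which lies 3546 nt from Igfbp3, was at 0.0102 FPKM in the library labelled shKSRP and listed at 0 in the other libraries.

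Igfbp4 (chromosome 11, 98902574 to 98913957, plus strand), a binding protein that mostly holds IGFs back until the protease PAPP-A cuts it, was at 2.46 ± 0.385 FPKM in the library labelled shKSRP, 6.50 ± 0.590 in the BMP2 library and 1.11 ± 0.189 in mock. It was highest in the BMP2 library, at 5.84 times the mock FPKM. That log2 ratio was 1.83 by locus and by exon overlap and 1.71 with a fixed length, a call in all 3 ways. Against the BMP2 library, the library labelled shKSRP was lower in all 3 ways (-1.12, -1.12 and -1.25). Its log2 ratio to mock was 0.71, or 0.46 with a fixed length, and turned to -1.08 on the RefSeq transcript alone. It was 1.08 with a pseudocount of 0.1 and 1.09 scaled by summed FPKM. In that library the RefSeq transcript was listed at 0, and 3 assembled transcripts held the whole value. These begin 6054 to 6807 nt downstream of the annotated start, the one in the last window printed above. In the BMP2 library 3.84 ± 0.407 FPKM stood on the RefSeq transcript and 2.66 ± 0.427 on an assembled transcript that begins 6019 nt downstream. Pappa, which codes for PAPP-A, was at 0.133 ± 0.0260, 1.74 ± 0.132 and 0.695 ± 0.0860 FPKM in the library labelled shKSRP, the BMP2 library and mock.

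Igfbp5 (chromosome 1, 72904639 to 72921439, minus strand) was at 94.9 ± 0.960 FPKM in the library labelled shKSRP, 33.1 ± 0.658 in the BMP2 library and 67.3 ± 1.08 in mock. It stood highest in the library labelled shKSRP and lowest in the BMP2 library, by locus and by both overlap counts. The difference between these libraries had a log2 ratio of 1.49, which became 0.99 by exon overlap and 1.12 with a fixed length. The BMP2 library held a transcript of 4086 nt on the plus strand at 14.3 ± 0.610 FPKM, with 96.8% of its length in Igfbp5 exons. With it, the BMP2 library came to 47.4 ± 0.897 FPKM, and its log2 ratio to mock was -0.50, or -0.44 with a fixed length, where the locus sum (49.2% of mock) lay at the edge of a call. Sources used here do not say whether the libraries keep strand, so reads of Igfbp5 and of an antisense RNA cannot be told apart. Igfbp5 and Igfbp2 lie tail to tail with 5593 nt between them. Against mock, the library labelled shKSRP had log2 ratios of 0.49 for Igfbp5 by locus and -2.14 for Igfbp2, of opposite sign. That of Igfbp5 was 0.68 with a fixed length, 0.96 on the RefSeq transcript alone and 0.12 without the length trend. Of the mock value of Igfbp5, 18.9 ± 0.770 FPKM stood on an assembled transcript of 5 exons.

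Igfbp6 (chromosome 15, 101974617 to 101979943, plus strand), which prefers IGF-II over IGF-I, was at 140.0 ± 6.05 FPKM in the library labelled shKSRP, 214 ± 3.45 in the BMP2 library and 246 ± 3.65 in mock. It was lowest in the library labelled shKSRP. There 66.1 ± 5.72 FPKM stood on an assembled transcript of 335 nt and 73.9 ± 1.97 on the RefSeq transcript. With a fixed length that library came to 91.1 ± 2.47 FPKM, and its log2 ratios went from -0.81 to -1.42 against mock and from -0.61 to -1.22 against the BMP2 library. Igfbp6 thus passed 2-fold with a fixed length alone among the 3 ways, and on the RefSeq transcript alone its log2 ratios were -1.72 to mock and -1.52 to the BMP2 library. Other settings made the difference smaller: the log2 ratio of the library labelled shKSRP to mock was -0.46 scaled by summed FPKM and -0.36 without the length trend. The BMP2 library had a log2 ratio to mock of -0.20, which was 0.06 scaled by summed FPKM and 0.04 without the length trend.

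Igfbp7 (chromosome 5, 77778265 to 77837070, minus strand) was at 305 ± 4.22 FPKM in the library labelled shKSRP, 580 ± 6.17 in the BMP2 library and 324 ± 4.57 in mock. The BMP2 library was highest, with log2 ratios to mock of 0.84 in all 3 ways and 1.10 scaled by summed FPKM. Log2 ratios of the library labelled shKSRP were -0.92 to the BMP2 library and -0.08 to mock. The log2 ratio to mock was 0.26 scaled by summed FPKM and 0.38 without the length trend. All of it stood on the RefSeq transcript NM_008048, and NM_001159518 was listed at 0. Polr2b, an RNA polymerase II subunit gene whose annotated 3′ end overlaps that of Igfbp7, was at 25.6, 23.3 and 25.7 FPKM in the library labelled shKSRP, the BMP2 library and mock. How fragments of the overlap were divided was not tested.

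**Figure D2:**
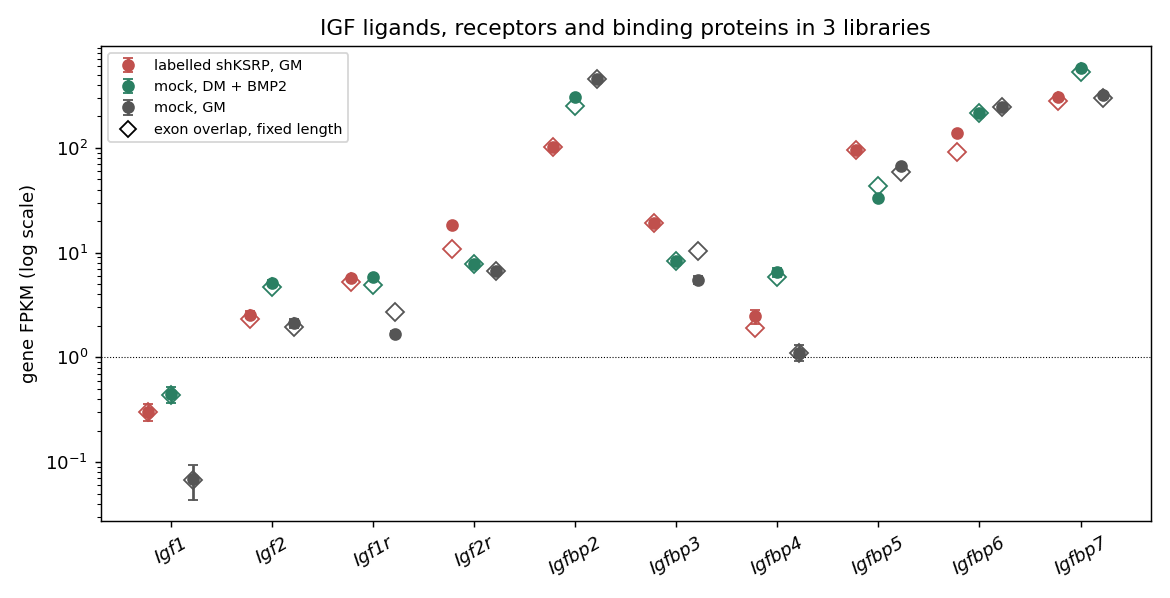
Gene FPKM (log axis) of the 10 genes in the library labelled shKSRP, the BMP2 library and mock, with filled points by Cufflinks locus, bars for the half-width of the 95% interval and open diamonds for exon overlap with a fixed length. Igf1 lies under 1 FPKM in each library. Within mock, Igfbp2, Igfbp6 and Igfbp7 are the highest of the 10 genes, from 246 to 456 FPKM, while Igfbp7 itself is highest in the BMP2 library, at 580 FPKM.

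As a group the binding proteins summed to 665 ± 7.81 FPKM in the library labelled shKSRP, 1152 ± 9.81 in the BMP2 library and 1099 ± 7.75 in mock. In sum the library labelled shKSRP held 60.5% of mock, or 55.3% with a fixed length, and the BMP2 library held 105%, or 98.6%. The make-up of the sum differed more than its size in the BMP2 library. Igfbp2 made up 15.4% in the library labelled shKSRP, 26.9% in the BMP2 library and 41.5% in mock. Igfbp7 made up 46.0%, 50.4% and 29.4% in the same order, and Igfbp5 made up 14.3%, 2.87% and 6.12%. Igfbp6 kept a like share, of 21.1%, 18.6% and 22.3%, while a fixed length gave 15.4% in the library labelled shKSRP.

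**Figure D3:**
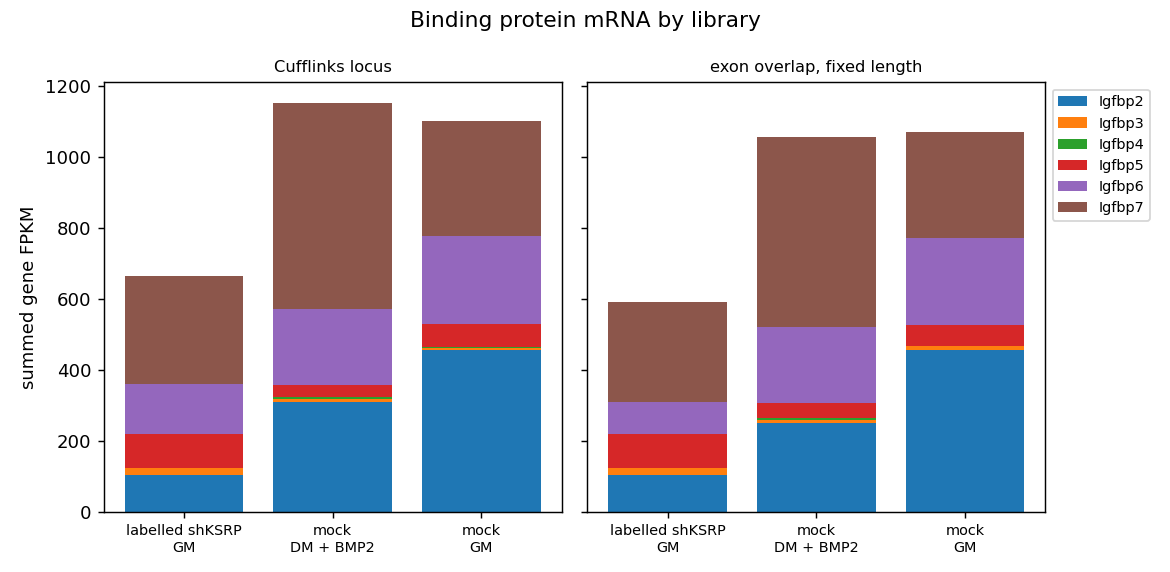
Summed gene FPKM (y axis) of the 6 binding proteins in each library, by Cufflinks locus and by exon overlap with a fixed length, with a colour for each gene. The sum is lowest in the library labelled shKSRP, at 665 FPKM by locus, and the Igfbp2 part is largest in mock.

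Counted together, 3 of the 9 compared genes were higher and 1 lower in the library labelled shKSRP than in mock by Cufflinks locus, where 11.0% of all 11463 compared genes were higher and 12.9% lower, 24.0% in all. By exon overlap 1 was higher and 1 lower (9.81% and 13.4% of all genes, 23.2% together). With a fixed length none was higher and 2 were lower (9.90% and 11.1% of all genes, 21.0% together). The call that stood in all 3 ways was Igfbp2, lower. The median log2 ratio of the 9 genes was 0.49, beside -0.02 for all genes. On RefSeq transcripts alone the balance turned, with 2 higher, 3 lower and a median of -0.08. Of all 10384 genes compared in that way, 1879 were higher and 1457 lower, with a median of 0.02.

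Between the BMP2 library and mock, 2 of 9 were higher and 1 lower by locus (9.21% and 8.95% of all genes, 18.2% together). By exon overlap and with a fixed length 1 was higher and none lower (8.45% and 9.13% of all genes by exon overlap, 17.6% together, and 7.68% and 7.29% with a fixed length, 15.0% together). Igfbp4, higher, was called in all 3 ways. The median was 0.50 by locus and 0.18 in the other ways, beside 0.03 for all genes by locus.

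Between the library labelled shKSRP and the BMP2 library, 3 of 9 were higher and 2 lower by locus (6.07% and 8.66% of all genes, 14.7% together). By exon overlap 2 were higher and 2 lower (5.57% and 8.85% of all genes, 14.4% together), and with a fixed length 2 and 3 (5.39% and 7.79%, 13.2% together). The median was -0.61 by locus, beside -0.02 for all genes. Igfbp3, higher, and Igfbp2 and Igfbp4, lower, were called in all 3 ways. This comparison shares its libraries with the others and is not independent of them.

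**Figure D4:**
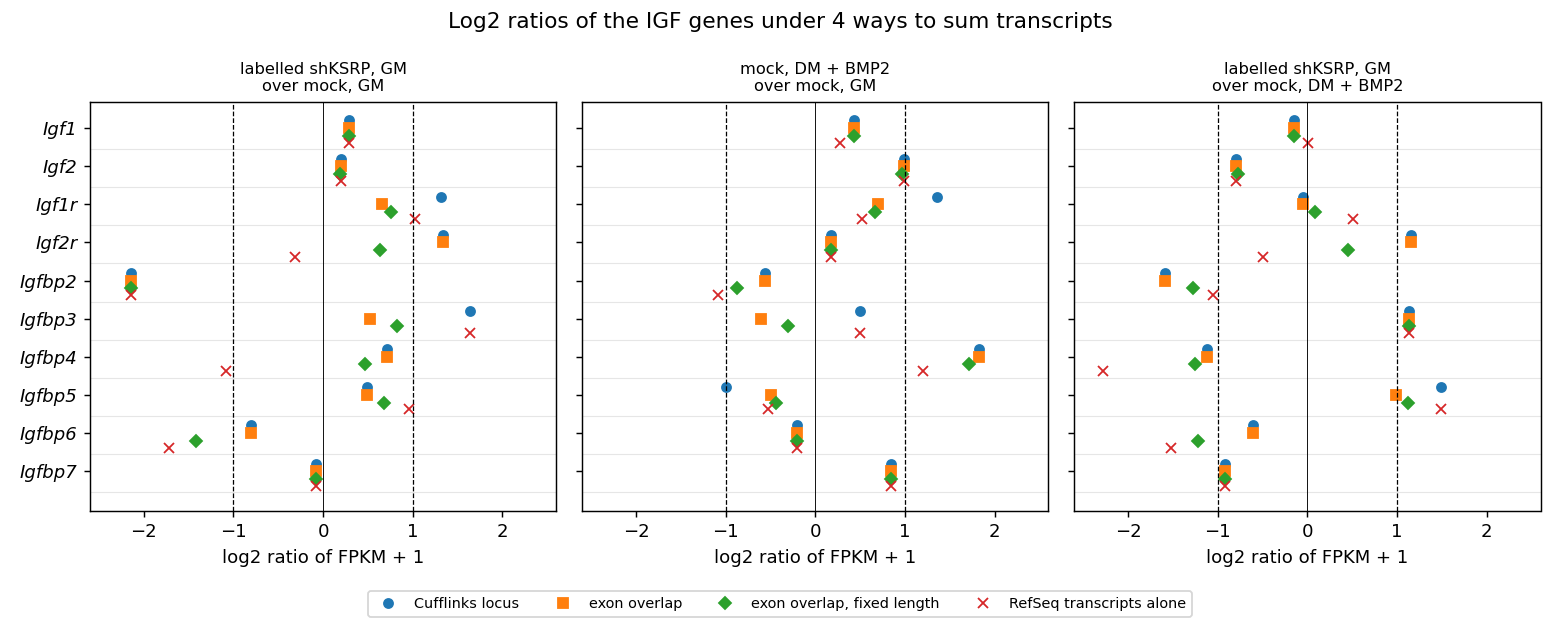
Log2 ratios of FPKM + 1 (x axis) of the 10 genes in the 3 comparisons under 4 ways to sum transcripts, with dashed lines at 2-fold. The 4 symbols nearly coincide for Igf2 and Igfbp7 and spread for Igf2r, Igfbp3 and Igfbp4.

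**Figure D5:**
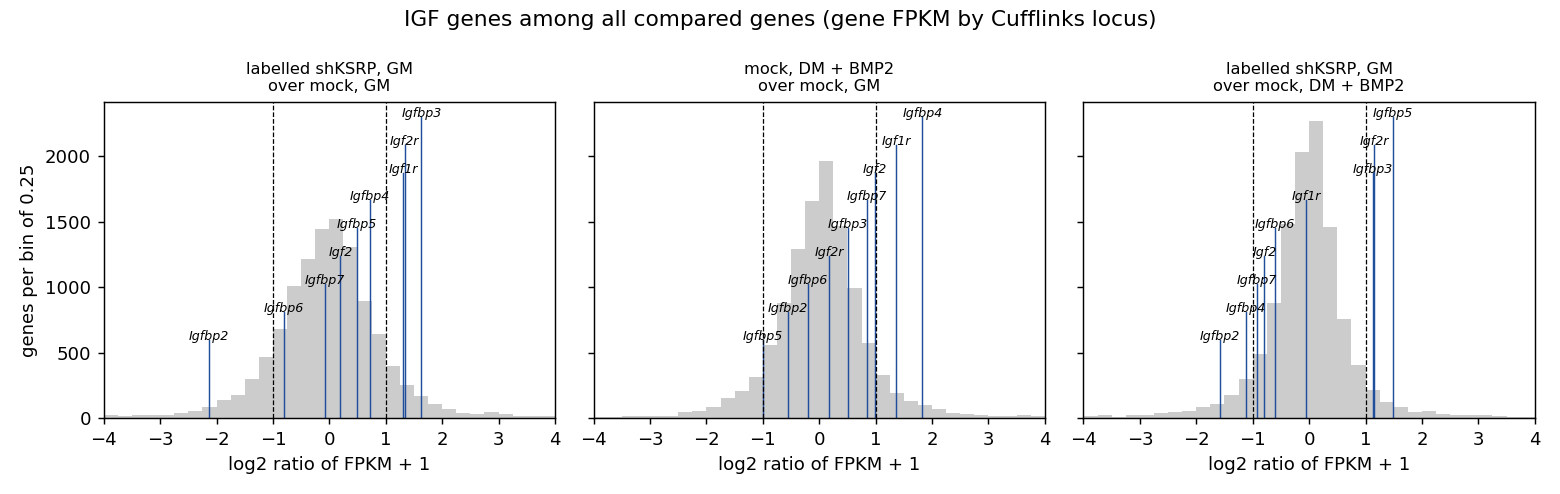
Distribution of log2 ratios of FPKM + 1 over all 11463 compared genes (grey, genes per bin of 0.25) with the 9 compared IGF genes as lines whose height only keeps the names apart, by Cufflinks locus. Dashed lines mark 2-fold, which Igfbp2 passes on the lower side in both comparisons of the library labelled shKSRP.

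Of the compared genes above 0 throughout and alone at their locus, 9294 were set beside Igfbp2. The 3 with the most similar pair of log2 ratios to mock were Psmd9, Rpl21 and Lmo1, at distances of 0.0085, 0.054 and 0.070 on the log2 scale, over 3 libraries. Psmd9, which codes for an assembly factor of the proteasome, was at 7.63 ± 0.417 FPKM in the library labelled shKSRP, 24.9 ± 1.47 in the BMP2 library and 36.9 ± 1.68 in mock. Rpl21, a ribosomal protein gene, was at 252, 721 and 1096 FPKM, and Lmo1, a LIM domain gene, at 0.279, 2.72 and 4.39 FPKM in the same order.

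AU-rich elements are the sites that KSRP is known to bind. In the longest GENCODE vM21 3′ untranslated region per gene, 9 of the 10 genes held the pentamer ATTTA, as did 63.9% of 18829 genes, and none held the nonamer TTATTTATT, which 6.90% of genes held. Igf1 had the most, with 18 in 6311 nt, and Igf1r had 13 in 7270 nt. Igfbp2 had 1 in 315 nt, Igf2r 3 in 1307 nt, Igfbp3 4 in 1438 nt, Igfbp5 7 in 4448 nt and Igfbp4 4 in 2816 nt. Per kilobase, Igfbp7 was the densest at 8.23, from 2 in 243 nt, Igfbp6 had none in 212 nt, and the median gene had 1.15. Igfbp2 and Igfbp3 had 3.17 and 2.78 per kilobase, the former from its single pentamer. A link between these counts and the levels was not tested.

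Proteases that cut the binding proteins, and their inhibitors, made a list of 16 genes together with Igfals, which is neither. Of the 16, 13 were compared, and Igfals was not among them. In the library labelled shKSRP 3 were higher and 2 lower than in mock, each in all 3 ways, beside 11.0% and 12.9% of all genes. The list's median log2 ratio was -0.14, beside -0.02 for all genes. Timp1, an inhibitor of matrix metalloproteinases, was at 227 ± 4.89 FPKM in the library labelled shKSRP against 970 ± 10.7 in mock, and the urokinase gene Plau at 16.2 ± 0.775 against 42.3 ± 1.33. Adam12, a protease that cuts IGFBP-3 and IGFBP-5, was at 7.31 ± 0.316 against 2.28 ± 0.136, and Stc2, whose protein inhibits PAPP-A, at 7.32 ± 0.516 against 2.23 ± 0.308. On RefSeq transcripts alone Plau and Adam12 were short of a call, with log2 ratios of -0.80 and 0.49. With BMP2, 3 were higher than in mock and none lower, 2 of them in all 3 ways, beside 9.21% and 8.95% of all genes, and the median was 0.62, beside 0.03. The membrane metalloproteinase gene Mmp14 was at 512 ± 3.68 FPKM in the BMP2 library against 168 ± 1.72 in mock. Mmp2, a gelatinase, was at 127 ± 1.66 in the BMP2 library against 25.9 ± 0.811 in mock, and its log2 ratio of 2.25 was 0.22 by exon overlap. Between the library labelled shKSRP and the BMP2 library, 5 of 13 were lower and none higher in all 3 ways. Of all genes, 8.66% were lower and 6.07% higher, and the list's median was -0.75, beside -0.02. Timp1 was at 227 ± 4.89 against 1034 ± 12.1 and Mmp2 at 34.1 ± 1.34 against 127 ± 1.66.

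Downstream of the IGF-I receptor, a list of 39 genes of IGF and insulin receptor signalling had 37 compared. In the library labelled shKSRP 9 were higher and 2 lower than in mock, of which 5 and 1 in all 3 ways, beside 11.0% higher and 12.9% lower of all genes. The list's median log2 ratio was 0.46, beside -0.02 for all genes. Irs1, the docking protein of the IGF-I and insulin receptors, was at 108 ± 1.23 FPKM in the library labelled shKSRP, 19.5 ± 0.368 in the BMP2 library and 7.61 ± 0.227 in mock. It was called against mock in both libraries, with log2 ratios of 3.67 and 1.25. Map2k2, a kinase of the MAP kinase pathway, was at 33.1 ± 1.31 FPKM in the library labelled shKSRP against 72.6 ± 1.95 in mock, and Hras at 40.7 ± 1.92 against 84.4 ± 2.82. Hras was short of a call with a fixed length (-0.97) and on RefSeq transcripts alone (-0.75). In the BMP2 library 2 were higher and 2 lower than in mock, a smaller share than the 18.2% of all genes called, and the median was 0.21, beside 0.03. Grb14, an adapter that inhibits the insulin receptor, was at 29.9 ± 1.23 FPKM in the BMP2 library against 3.62 ± 0.350 in mock. Eif4ebp1, a repressor of translation that mTOR inactivates, was at 68.0 ± 2.29 in the BMP2 library against 323 ± 8.49 in mock. Hras was at 37.8 ± 1.88 against 84.4 ± 2.82 in mock, and its log2 ratio of -1.14 was -0.91 with a fixed length and 0.04 on RefSeq transcripts alone. Between the library labelled shKSRP and the BMP2 library 3 were higher and 1 lower, beside 6.07% and 8.66% of all genes. These calls made 10.8% of the list, a smaller share than the 14.7% of all genes called. Irs1 was at 108 ± 1.23 against 19.5 ± 0.368, Eif4ebp1 at 198 ± 4.71 against 68.0 ± 2.29 and Grb14 at 8.44 ± 0.589 against 29.9 ± 1.23. On RefSeq transcripts alone Eif4ebp1 turned to a log2 ratio of -0.30, and Irs1 had 0.58 in place of 2.41, short of a call.

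FoxO factors are held out of the nucleus by AKT, and a list of 11 of their target genes had 9 compared. In the library labelled shKSRP 5 were higher than in mock and none lower, in all 3 ways, beside 11.0% higher and 12.9% lower of all genes. The median log2 ratio was 1.09, beside -0.02 for all genes. Gadd45a, a stress gene, was at 140 ± 4.23 FPKM in the library labelled shKSRP, 19.3 ± 1.07 in the BMP2 library and 37.8 ± 2.40 in mock. Sesn3, which codes for a sestrin, was at 11.6 ± 0.265 in the library labelled shKSRP against 2.47 ± 0.275 in mock, and on RefSeq transcripts alone its log2 ratio turned from 1.86 to -1.79. With BMP2, 2 were higher and none lower, beside 9.21% and 8.95% of all genes, with a median of 0.80, beside 0.03. Sesn1 was at 27.5 ± 0.922 FPKM in the BMP2 library against 8.99 ± 0.515 in mock, and Pdk4, a kinase that shuts down pyruvate dehydrogenase, at 24.5 ± 0.876 against 10.6 ± 0.442. On RefSeq transcripts alone Pdk4 had a log2 ratio of -0.03. Between the library labelled shKSRP and the BMP2 library, 2 were higher, Gadd45a and Sesn3 (log2 ratios 2.80 and 1.06), and 1 lower, Sesn1 (-1.16). On RefSeq transcripts alone Sesn3 was short of that call. In this comparison 6.07% of all genes were higher and 8.66% lower, and the list's median was 0.13, beside -0.02.

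Sorting of mannose 6-phosphate, the other task of Igf2r, was followed in 9 genes, all compared. None was called against mock in either library, with median log2 ratios of 0.27 for the library labelled shKSRP and 0.07 for the BMP2 library. Of all genes, 24.0% and 18.2% were called in these comparisons, with medians of -0.02 and 0.03. The smaller mannose 6-phosphate receptor M6pr was at 72.9, 69.2 and 72.8 FPKM in the library labelled shKSRP, the BMP2 library and mock. Sort1, the receptor sortilin, was the single call between the library labelled shKSRP and the BMP2 library, at 2.28 ± 0.164 against 0.596 ± 0.0903, with a log2 ratio of 1.04 and of 0.96 on RefSeq transcripts alone. That call made 11.1% of the list, beside 14.7% of all genes called in the same comparison.

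Proteins with an IGFBP domain but little IGF binding, together with the IGF binding protein gene Igfbp1, made a list of 10. Of these, 7 were compared, and Igfbp1 was not among them. Against mock, 2 were higher and 2 lower in the library labelled shKSRP, and 3 higher and none lower in the BMP2 library, in all 3 ways. The medians were -0.18 and 0.93, beside -0.02 and 0.03 for all genes. Of all genes, 11.0% were higher and 12.9% lower in the library labelled shKSRP, and 9.21% and 8.95% in the BMP2 library. Ccn2, connective tissue growth factor, was at 2.98 ± 0.271 FPKM in the library labelled shKSRP, 205 ± 2.39 in the BMP2 library and 138 ± 1.94 in mock. Kazald1 was at 4.59 ± 0.470, 31.5 ± 1.28 and 13.8 ± 0.833 FPKM in the same order. Ccn2 and Kazald1 thus lay below mock in the library labelled shKSRP, as Igfbp2 did. Ccn3 was at 6.68 ± 0.480, 24.3 ± 1.01 and 2.73 ± 0.275 FPKM, and Ccn5 at 16.5 ± 0.754, 10.7 and 4.83 ± 0.427, both above mock in both libraries. On RefSeq transcripts alone the log2 ratio of Ccn3 in the library labelled shKSRP was 0.43, short of a call. Between the library labelled shKSRP and the BMP2 library 1 was higher, Ccn4 at 29.4 ± 0.628 against 13.0 ± 0.502, and 4 were lower. In this comparison 6.07% of all genes were higher and 8.66% lower, and the list's median was -1.10, beside -0.02.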

How the data were processed

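Polyadenylated RNA of 3 C2C12 libraries was sequenced on an Illumina HiSeq 2000, per the labels' protocols. Per library, the authors' deposited file gives each transcript's FPKM with a 95% interval, and also a score, left unused. Tools listed in the submitters' processing notes, without settings, are Cufflinks 1.3.0, TopHat 1.4.1, Bowtie 0.12.7 and CASAVA 1.8. Their build is mm9. Each library was assembled on its own, so fragments of a gene can move to an assembled transcript in 1 library and not in another.

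Symbols came from RefSeq tables for 27562 of 28221 accessions. Gene FPKM, its half-width (root of summed squares over transcripts) and both overlap counts are defined in the results. The overlap counts were added after seeing the data, because the Cufflinks locus missed transcripts within exons. Of 22706 genes, 11463 had 1 FPKM or more in at least 1 library and a RefSeq transcript of at least 300 nt, 9 of the 10 IGF genes among them. Fragments per library were estimated from interval widths. Intervals cover counting and assignment error only, and PCR copies are not marked. The code that sums transcripts and applies the 2-fold rule was checked on simulated data, which is no test of the libraries. All 10 genes are named, with Khsrp as a check of the label. From each list, up to 2 genes with the highest and 2 with the lowest ratios among those called and above 0 in all libraries are named. One gene that this rule names is not reported here. Genes and lists were chosen with earlier results of these data known. Python 3.11.15, pandas 2.3.3 and numpy 2.4.6 were used.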

Additional observations from a re-analysis of the deposited data

How the results depend on the processing

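No paired analysis was possible because each group holds 1 library. There were 12 alternatives planned and 2 added after seeing the data. For shKSRP against mock, the 4 IGF genes called became 2 with the length trend taken out, 2 by exon overlap and 2 with a fixed length in addition. In the same settings the 2748 of 11463 genes called became 2416 of 11463, 2668 of 11494 and 2401 of 11439. With a pseudocount of 5 and at 1.5-fold, 1514 and 5241 of all genes were called, and 3 and 6 IGF genes. For BMP2 against mock, the 3 IGF genes called became 0 with a pseudocount of 5, 5 at 1.5-fold and 1 under each overlap count. The 2082 genes called became 1168 with a pseudocount of 5 and 4341 at 1.5-fold. They became 2020 by exon overlap and 1712 with a fixed length in addition. For shKSRP against BMP2, the 5 IGF genes called became 2 with a pseudocount of 5, 3 with the length trend taken out and 8 at 1.5-fold. In the same settings the 1689 genes called became 849, 1641 and 3537. Igf2r reversed on RefSeq transcripts alone, and on the most abundant one alone, to -0.32 against mock and -0.50 against BMP2. These follow from the assembled 3′ transcript left out. Igfbp4, not called by locus, turned in the same way to -1.08 against mock. Igfbp2 kept its calls for shKSRP against mock and against BMP2 in every alternative. Filters on low values only set which genes are compared, so they could not change a log2 ratio of the 10 genes. For the genes at 1 to 10 FPKM, half-widths were widest relative to FPKM for Igfbp4 in mock (0.189 of 1.11 FPKM), and with 1 library per group the spread between cultures is unknown.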

Other observations

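Assembled transcripts that were given to no gene lay near or within Igf1r and Igfbp6. Within Igf1r, between 75179384 and 75183322 on chromosome 7 (mm9), the library labelled shKSRP had none, the BMP2 library had 3, with at most 1.73 FPKM, and mock had 2, with at most 0.639 FPKM. Upstream of Igfbp6, between 101971214 and 101973210 on chromosome 15, each library had 2, with at most 1.06 FPKM in the library labelled shKSRP, 2.81 in the BMP2 library and 1.69 in mock. They were counted for neither gene.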
